A study of Saccharomyces cerevisiae with 16 samples.

Results

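The poly(A) share of each transcript was compared between sorted and unsorted budding yeast cells in lithium chloride (LiCl). It was measured as the log2 ratio of the normalised read count (CPM, counts scaled to library size) in a polyadenylated RNA library to that in a ribodepleted library of the same RNA sample. A ratio of 0 means that a gene took the same normalised CPM in both libraries, and a difference of 1 between ratios is 2-fold. The libraries were chosen by their labels: 8 of the 16 libraries of the series, from 4 of its 8 RNA samples, came from cells in LiCl, and 6602 of 6697 annotated genes passed the read minimum in both library types (a mean of 10 reads over the 8 libraries of a type) and were tested. The ratio is relative to the other genes of the same libraries, so a loss of poly(A) shared by all transcripts would not appear in it.

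The sorted samples were cells of an *RPS22B-GFP* strain, labelled LiCl IC50 and sorted GFP high or GFP low, here called Rps22B-high and Rps22B-low. The labels describe the same 24 h cultures with re-inoculation for all samples, the sorted ones included. By the Methods, however, the sorted cells had grown overnight for 16 h, then spent 6 h in LiCl at 4.5 mg/ml after a 20-fold dilution, were washed in PBS and were sorted among mCherry-positive cells, so that both populations came from 1 culture. The genotype label is *RPS22B-GFP* for the polyadenylated sorted libraries and *RPS22B-GFP HOdelta::TDH3pr-mCherry-natMX4* for the ribodepleted ones. The unsorted samples were a WT culture and an *RPS22B-GFP* culture labelled 5′UTR intron deleted, both in LiCl at half-maximal growth inhibition over 24 h with transfer to fresh medium every 8 h. The labels give rich YPD medium for all samples, and *URA3* and *LEU2* had 0 to 1 reads in each of the 8 libraries. Each labelled group is 1 RNA sample without a replicate, and an exact two-sided permutation test of 2 against 2 samples cannot give a p below 0.333, so no p-value accompanies the comparisons. A gene was instead called higher or lower where both sorted ratios lay at least 2-fold beyond both unsorted ratios. Among the polyadenylated libraries, the title numbers of sorted and unsorted samples lie in separate ranges, whereas the ribodepleted libraries are numbered consecutively. What the numbers stand for is not given. Strain, washing, sorting, this numbering and, by the Methods, culture regime and duration in LiCl differ between the sorted and the unsorted cells. They cannot be told apart.

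Most yeast mRNAs end in a poly(A) tail that is added after cleavage of the transcript and is bound by Pab1. The Ccr4-Not and Pan2-Pan3 complexes shorten the tail, and decapping and decay of the mRNA usually follow. Selection on oligo(dT) keeps RNA with a tail long enough to bind, whereas ribodepletion removes ribosomal RNA and keeps mRNA whether or not it has a tail. A transcript's ratio between the library types can therefore differ between conditions while its ribodepleted level stays the same. Genes for ribosomal proteins and for the factors that build ribosomes form the largest co-regulated group in growing yeast.

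The 4 sorted libraries held 29557254 to 40559261 counted reads and the 4 unsorted LiCl libraries 39881024 to 53234402. The reads of marker genes set the strains apart. *LYS2* had 3 and 5 polyadenylated reads in Rps22B-high and Rps22B-low, against 6707 in WT and 4 in the culture labelled intron deleted. *MET17* had 24021 and 40541 reads in the sorted libraries, against 1 in WT and 3048 in the culture labelled intron deleted. *HIS3* had 0 polyadenylated reads in both sorted samples, against 5097 in WT and 0 in the culture labelled intron deleted. In *LYS2* and *HIS3* the sorted cells were thus alike to the culture labelled intron deleted and not to WT. *HO*, which the label gives as deleted in the sorted strain, had 5348 and 8205 polyadenylated reads in the sorted samples, against 198 in WT and 147 in the culture labelled intron deleted. By the Methods, the mCherry construct was inserted at this locus. The counts are for the whole frame and do not show which part of it was read, so they do not decide that part of the label. The culture labelled intron deleted had 594 polyadenylated and 269 ribodepleted reads within the *RPS22B* 5′ UTR intron, against 285 and 165 in WT, which goes against its label. It is therefore named by its label throughout, and no direction below rests on the deletion.

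Genes of the translation machinery made up a large part of those with a lower share in sorted cells. The share was lower in sorted cells for 371 of 6602 genes (5.62%) and higher for 47 (0.712%). Of the 371 genes, 116 encode cytosolic ribosomal proteins, 43 are listed ribosome biogenesis factors and 9 are translation factors, 168 in all. The difference between the sorted and the unsorted means had a median of 0.09 over all tested genes, with 5th and 95th percentiles of −1.38 and 0.75. Its tail was long on the lower side: the gap between the groups was at least 4-fold for 146 genes that were lower and for 6 that were higher, and at least 8-fold for 49 and 2. The 2 were *COX1* and *AI4*, and the 6 also included *AI1*, *AI2* and *AI5_ALPHA*. These mitochondrial frames share reads. *COX1*, *AI4* and *AI5_ALPHA* met the read minimum only through the sorted libraries, so these counts of higher genes are no measure of an upper tail.

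**Figure D1:**
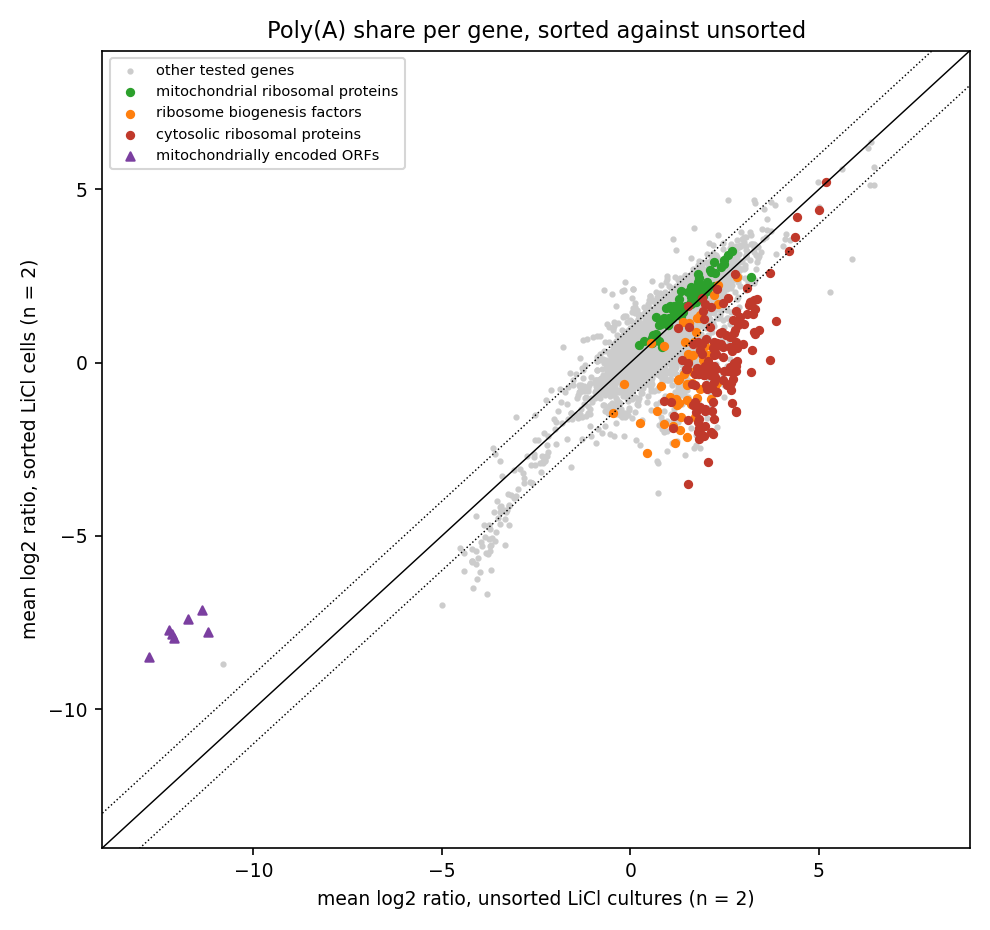
Each point is 1 tested gene, with its mean log2 ratio in the 2 sorted RNA samples on the vertical axis and in the 2 unsorted LiCl cultures on the horizontal axis. The solid line marks equal ratios and the dotted lines a 2-fold difference. Most cytosolic ribosomal protein (red) and ribosome biogenesis (orange) genes lie below the lower dotted line, mitochondrial ribosomal protein genes (green) lie near the solid line, and mitochondrially encoded frames (triangles) lie at the lower left, above it.

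The spread within each class was smaller than the difference between the classes. The standard deviation over genes was 0.73 for sorted minus unsorted, against 0.37 for Rps22B-high minus Rps22B-low and 0.26 for the culture labelled intron deleted minus WT. Rps22B-high was at least 2-fold above Rps22B-low for 48 genes (0.727%) and below it for 87 (1.32%). The culture labelled intron deleted was above WT for 24 genes (0.364%) and below it for 25 (0.379%). Leaving out 1 of the 4 samples removes a condition from the rule for sorted against unsorted cells. The counts of called genes could then only stay or rise, so they do not show how far the calls rest on single samples.

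Most of the loss was measured in the polyadenylated libraries. Of the 371 genes with a lower share, 351 also had a polyadenylated level at least 2-fold lower in both sorted samples than in both unsorted LiCl samples, and 115 had a ribodepleted level lower by the same rule. Over all tested genes, the polyadenylated level was called lower for 935 (14.2%) and higher for 674 (10.2%), and the ribodepleted level was called lower for 535 (8.1%) and higher for 435 (6.59%). Scaling by total counts turned these splits to 748 lower and 923 higher, and to 216 lower and 1042 higher. Leaving out a sample could only keep or raise these counts, since the rule then has fewer conditions. For 233 of the 371 genes the polyadenylated level was lower while the ribodepleted level was not called in either direction. For 6 genes the ribodepleted level was higher. They include *RPS20*, *SSB1* and *YDL228C*, of which the last overlaps *SSB1* so that their reads cannot be told apart.

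Cytosolic ribosomal proteins gave the largest number of calls among the lists. Of 137 genes 116 had a lower share in sorted cells and none a higher one, beside 5.62% and 0.712% of all genes, and the median difference was −2.27, a 4.83-fold loss. Their median log2 ratio was −0.20 in Rps22B-high and 0.15 in Rps22B-low, against 2.34 in WT and 2.15 in the culture labelled intron deleted. The cultures without LiCl lay with the unsorted ones, at 1.64 in NaCl, 2.02 in high glucose, 2.00 in myriocin and 1.72 in fenpropimorph. In plain shares of counted reads, these genes took 0.432% and 0.476% of the polyadenylated reads in Rps22B-high and Rps22B-low, against 4.06% in WT and 2.86% in the culture labelled intron deleted. In the ribodepleted libraries they took 0.558% and 0.561% in the sorted samples, against 0.645% and 0.544%, so that these shares of the sorted samples lay between those of the 2 unsorted ones. By normalised CPM, however, their ribodepleted level had a median difference of −1.11. It was called lower for 52 of the 137 genes and higher for 1, beside 8.1% and 6.59% of all genes, so the 2 measures differ.

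**Figure D2:**
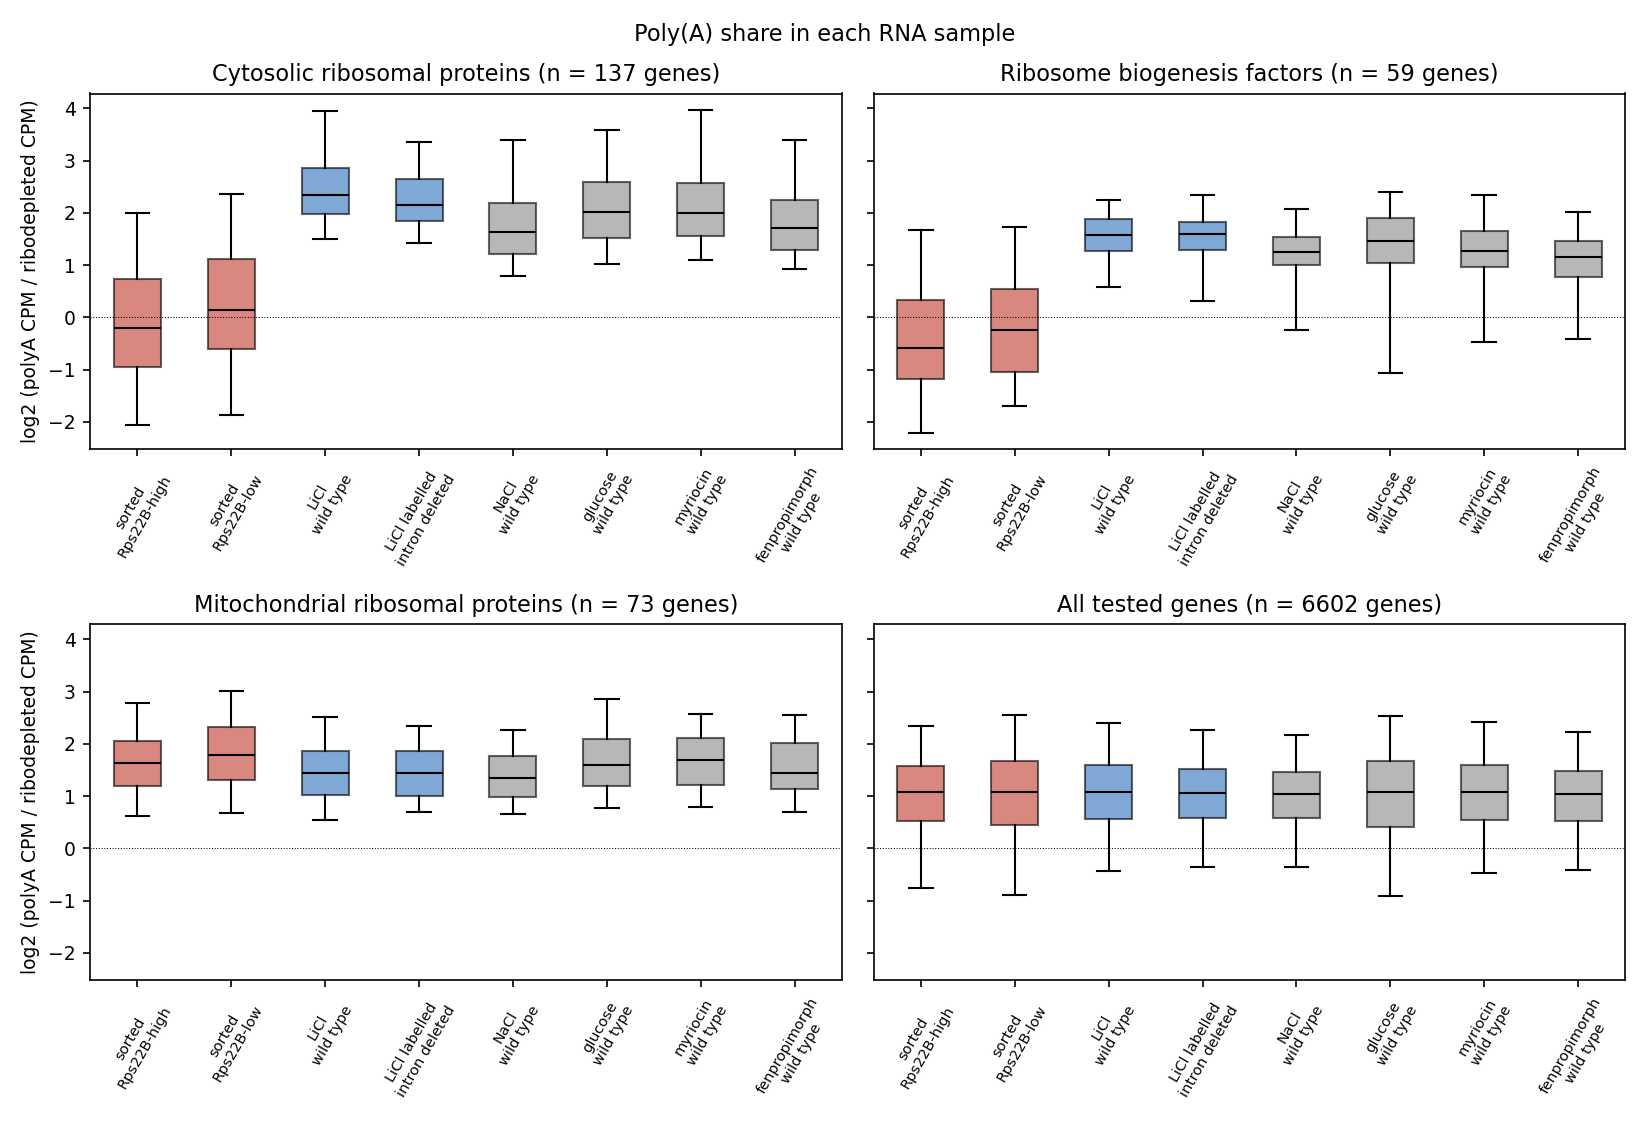
Log2 ratio of polyadenylated to ribodepleted CPM in each of the 8 RNA samples, for 3 gene lists and for all tested genes. Boxes span the quartiles over genes with the median as a line, and whiskers reach the 5th and 95th percentiles. The ribosomal protein medians of the 2 sorted samples are −0.20 and 0.15, below the 1.64 to 2.34 of the 6 unsorted cultures, and the medians over all genes stay between 1.03 and 1.09.

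The deepest falls were spread over both ribosomal subunits. *RPS20* (YHL015W, chromosome VIII, 75412 to 75777, plus strand), a protein of the small subunit, had log2 ratios of −3.79 and −3.23 in Rps22B-high and Rps22B-low, against 1.67 in WT and 1.41 in the culture labelled intron deleted. Its difference of −5.05 (95% counting interval −5.12 to −4.97) was the largest fall of any tested gene. Its reads moved in opposite directions in the 2 library types, with 798 and 1313 polyadenylated reads in the sorted samples, against 17503 and 10896, and 15224 and 13261 ribodepleted reads, against 4938 and 4224. *RPS1B* (YML063W, chromosome XIII, 146482 to 147249, plus strand), also of the small subunit, had ratios of −3.10 and −2.65 in the sorted samples, against 2.13 and 2.01. It fell by 4.94 (−5.08 to −4.80 as the counting interval of the difference), with 204 and 343 polyadenylated reads in the sorted samples, against 26081 and 13441.

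Further members were likewise far apart between the classes and close together within them. *RPL3*, a large subunit protein near the catalytic centre, had ratios of −2.18 and −1.96 in sorted cells, against 2.30 and 2.07. *RPL5*, which binds 5S ribosomal RNA, had −2.22 and −1.99 in sorted cells, against 2.05 and 1.87. *RPL8A* and *RPS12* differed by −4.04 and −4.22, and *RPS19A* lay nearest the median of the list, with −0.30 and −0.04 in sorted cells, against 2.06 and 2.15. In none of these 5 genes did the groups overlap, which by itself is common. Over all 6602 tested genes, both sorted ratios lay below both unsorted ones for 1819 and above them for 2763. The counting intervals cover sampling of reads only, and reads from polymerase chain reaction copies are not independent molecules.

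The *RPS22* pair encodes the small subunit protein that was tagged for sorting. *RPS22A* (YJL190C, chromosome X, 74910 to 75302, minus strand), the copy without an intron, had ratios of −2.10 and −1.92 in Rps22B-high and Rps22B-low, against 2.17 in WT and 2.12 in the culture labelled intron deleted, a difference of −4.16. It had 165 and 203 polyadenylated reads in the sorted samples, against 8688 and 4257, and 979 and 829 ribodepleted reads, against 1722 and 1013. *RPS22B* (YLR367W, chromosome XII, 856442 to 857317, plus strand) had ratios of −1.13 and −1.97 in Rps22B-high and Rps22B-low, against 1.19 and 1.10, a difference of −2.70 (−2.83 to −2.57). Its polyadenylated reads were 669 and 494 in the sorted samples, against 1085 and 4422, and its ribodepleted reads 2015 and 2093, against 424 and 2137. Both genes were called lower, and the order of the sorted samples in *RPS22B* was the reverse of that in *RPS22A*. The 2 genes encode near-identical proteins, and reads from like stretches can be shared between them.

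Paralogues parted in some pairs. Of 59 pairs of ribosomal protein genes with both copies tested, both copies were lower in 42, 1 copy in 13 and neither in 4. The copies of 22 pairs differed by more than 2-fold in their change. *RPL15A* had ratios of −2.18 and −1.80 in sorted cells, against 1.94 and 1.66, while *RPL15B* had 1.54 and 1.71 in sorted cells, against 1.54 and 1.51. The groups overlapped for *RPL15B*. The other members that were not called included *RPL41A* (0.02) and *RPS28A* (−0.22), which encode some of the shortest ribosomal proteins, and *RPS27A* (−0.28), which overlaps *YKL156C-A*. These genes were picked after their values were seen, and where copies share stretches of sequence the counting can move reads from one to the other.

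The size of the fall varied with the length of the coding sequence. Of the 47 shortest ribosomal protein genes (78 to 384 bp) 32 were lower, with a median difference of −1.60. Of the 45 genes of middle length (387 to 531 bp) 43 were lower, with −2.46, and of the 45 longest (555 to 1164 bp) 41 were lower, with −2.84. Spearman's rho of length with the difference was −0.49 over the 137 genes, −0.32 over 59 ribosome biogenesis factors and −0.08 over 6595 nuclear genes. These are descriptions over genes of the same libraries. Nuclear genes with a lower share had a median coding length of 969 bp, against 1092 bp for all 6595, a GC content of 41.3%, against 39.8%, and a longest run of A of 5, against 6 bases.

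Ribosomal protein genes fell with or without an intron. Of 101 with an intron 86 were lower, with a median difference of −2.11, and of 36 without an intron 30 were lower, with −2.80. Other nuclear genes with an intron had 4 lower (2.06%) and 1 higher (0.515%) of 194, with a median of 0.22. Other nuclear genes without an intron had 4.01% lower and 0.623% higher. Over all genes 5.62% were lower and 0.712% higher.

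Reads within the introns of ribosomal protein genes did not follow the reads of the coding sequence. Over 102 introns in 101 genes, the share of intron reads had a median difference of −0.42, whereas the share of coding reads of the same genes, counted once for each intron, had −2.13. The coding share fell by more than the intron share for 101 of the 102 introns. Of these introns 5 were lower and 1 higher by the 2-fold rule, and 87 had a lower coding share, beside 2.8% of introns lower and 4.2% higher over all 286 tested. The median ratio of intron reads was 0.61 and 0.58 in Rps22B-high and Rps22B-low, against 1.24 in WT and 0.91 in the culture labelled intron deleted. For *RPL17B* the intron share differed by −0.14 and the coding share by −3.11. In *RPS22B* the coding share differed by −2.70, while the shares differed by −0.56 in its 5′ UTR intron and by −0.40 in its coding intron, which holds the small nucleolar RNA snR44. The 184 introns of other genes had a median of 0.10, beside 0.22 for their coding reads. Among them the intron of *DBP2*, an RNA helicase gene, had a difference of 1.41, beside −2.96 for its coding reads. Of the 286 introns 9 overlap an annotated noncoding RNA, whose reads cannot be told apart from those of the intron. Without these, 99 introns of ribosomal protein genes had a median of −0.44, beside −2.11 for their coding reads, and the coding share fell by more for 98 of them. Comparing introns with coding sequences, and naming these genes, were choices made after the values were seen.

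**Figure D3:**
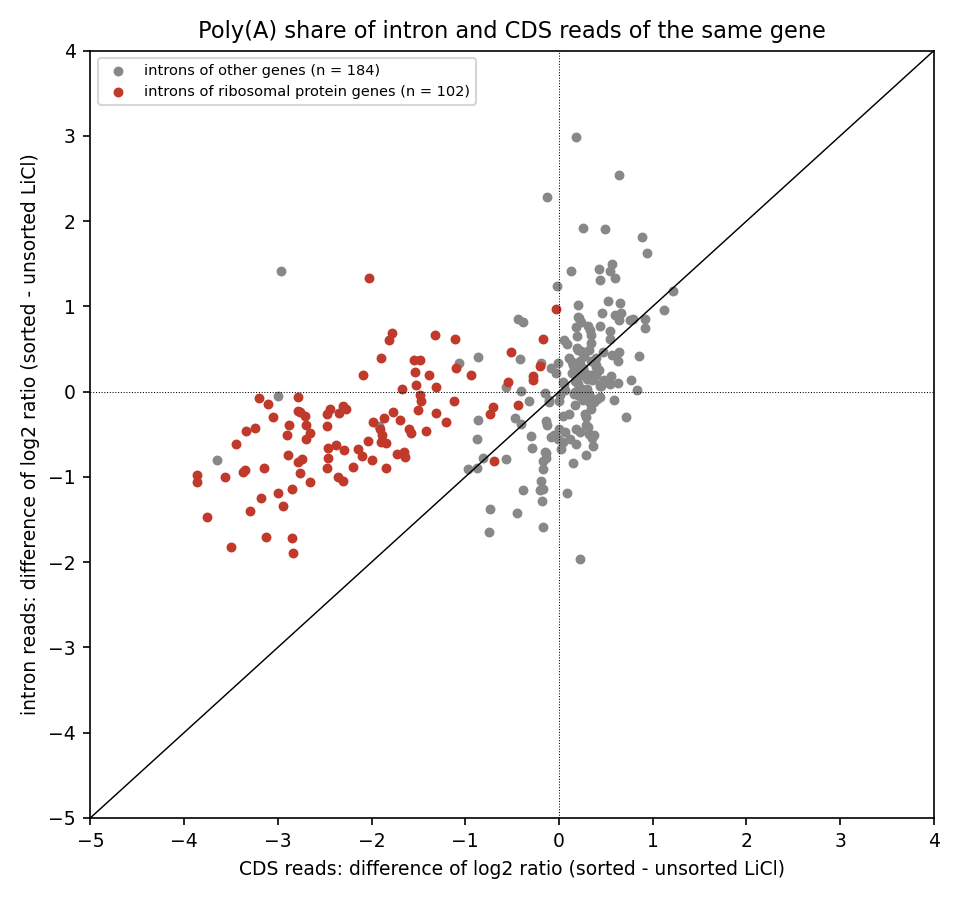
Each point is 1 tested intron, with the sorted minus unsorted difference of the log2 ratio for reads of the intron on the vertical axis and for coding reads of the same gene on the horizontal axis. The line marks equal differences. The 102 introns of ribosomal protein genes have a median of −0.42 for intron reads and −2.13 for coding reads, and 101 of them (red) lie above the line, with introns of other genes in grey.

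Ribosome biogenesis factors, which process ribosomal RNA and assemble the subunits in the nucleolus and nucleus, fell nearly as far. Of 59 genes 43 had a lower share in sorted cells and none a higher one, beside 5.62% and 0.712% of all genes. The median difference was −1.90, a 3.73-fold loss. The median ratio was −0.59 in Rps22B-high and −0.25 in Rps22B-low, against 1.58 in WT and 1.60 in the culture labelled intron deleted, and 1.15 to 1.47 in the 4 cultures without LiCl. Their polyadenylated level had a median difference of −3.29 and their ribodepleted level one of −1.31. *NOP14* (YDL148C, chromosome IV, 188154 to 190586, minus strand), a component of the small subunit processome, had ratios of −2.48 and −1.84 in sorted cells, against 1.58 and 1.45, and fell by 3.67. *NOP2* (YNL061W), a methyltransferase of large subunit RNA, had −2.65 and −1.99 in sorted cells, against 1.17 and 1.18, and fell by 3.50. *NUG1*, a GTPase of large subunit export, lay nearest the median of the list with 0.04 and 0.41 in sorted cells, against 2.19 and 2.07. *NOP53*, also of large subunit assembly, had 2.04 and 2.44 in sorted cells, against 2.25 and 2.41, and *NOP16* had 1.78 and 2.10, against 2.20 and 2.25. The groups of *NOP53* overlapped.

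Many genes of this group carry the sequence TGTANANTA after the stop codon, the motif of Puf4, a protein of the Pumilio family that recruits deadenylation in yeast. Within the 200 bases after the stop codon, on the transcript strand, it stood in 61.0% of the 59 biogenesis genes, against 6.76% of all 6595 tested nuclear genes and 8.03% of ribosomal protein genes. It stood in 18.6% of all genes with a lower share, and in 24.3% of those that do not encode ribosomal proteins. Any overlap with other motifs was allowed. The sites of the 4 biogenesis genes with the largest falls among those with a site, and of the 2 with the smallest, are shown to compare the letters of genes at both ends of the range. The 9 capitals mark the site, and all are read from the R64 reference 5′ to 3′ on the transcript strand.
NOP2 (chrXIV:512499-512519, plus strand, difference −3.50): tctcacTGTATATTAaattca
NOP7 (chrVII:697361-697381, plus strand, −3.30): aataccTGTACATTAaaagtg
ERB1 (chrXIII:368057-368077, minus strand, −3.29): agatatTGTATAATAacgccc
NOP13 (chrXIV:307336-307356, minus strand, −3.19): ttcgctTGTAAATTAttcaat
NOP53 (chrXVI:276035-276055, minus strand, −0.09): aacaacTGTATAGTAggtaac
NOP10 (chrVIII:241858-241878, plus strand, −0.24): gaatatTGTATAGTAcgtgat

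Within the list, genes with and without the site had medians close to each other. The 36 biogenesis genes with a site had a median difference of −1.95 with 28 lower, and the 23 without one had −1.79 with 15 lower. Among ribosomal protein genes, 7 of 11 with a site and 109 of 126 without one were lower. Among the other tested nuclear genes, 34 of 399 with a site were lower (8.52%), against 178 of 6000 without one (2.97%), with medians of −0.01 and 0.11. A match to these letters is a description of the window and not evidence of binding.

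Another Pumilio motif stood after most mitochondrial ribosomal protein genes. The sequence TGTANATA, the motif of Puf3, which regulates transcripts of mitochondrial biogenesis, stood in 97.3% of 73 mitochondrial ribosomal protein genes, against 13.2% of all tested nuclear genes and 7.01% of genes with a lower share. The 2 mitochondrial ribosomal protein genes with the largest differences among those with a site are shown, with the 8 capitals marking it.
MRP49 (chrXI:133683-133702, minus strand, difference 0.74): tgttcaTGTATATAtcaaaa
MRP10 (chrIV:372585-372604, plus strand, 0.73): tggcctTGTATATAcaaatt
None of the 73 genes was called in either direction, beside 5.62% lower and 0.712% higher over all genes. Nothing about the list or the motif is read from the absence of calls. Their median difference was 0.27 with 66 of them above 0, beside 3873 of 6602 over all genes. The median ratio was 1.64 in Rps22B-high and 1.78 in Rps22B-low, against 1.45 in WT and 1.44 in the culture labelled intron deleted. *MRP49* had 2.50 and 2.59 in sorted cells, against 1.78 and 1.83, and *MRPL51*, which overlaps *YPR099C*, had 2.51 and 2.42, against 3.18 and 3.20. The 35 nuclear genes of the respiratory chain and ATP synthase had a median of 0.33 with none called, although 29 of them had a ribodepleted level at least 2-fold lower in sorted cells. *COX9*, a small subunit of cytochrome c oxidase, had ratios of 3.38 and 3.44 in sorted cells, against 2.63 and 2.70, with a ribodepleted level difference of −1.93. *CYT1*, cytochrome c1, had 1.60 and 1.13, against 1.63 and 1.62.

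Translation factors fell by less. Of 27 genes 9 were lower, beside 5.62% of all genes, with a median difference of −0.88. Differences below 0 were found for 26 of 27, beside 2729 of 6602 over all genes. *YEF3* (YLR249W, chromosome XII, 636780 to 639914, plus strand), the fungal elongation factor that clears the exit site, had ratios of −2.48 and −2.27 in sorted cells, against 1.72 and 1.75, and fell by 4.11. Its polyadenylated reads were 2807 and 4358 in sorted cells, against 139016 and 74074, while its ribodepleted reads were 21522 and 22698, against 37882 and 22799. *STM1*, which binds idle ribosomes, fell by 2.52, and the copies *EFT1* and *EFT2* of elongation factor 2 fell by 1.97 and 2.17. *SUI1*, the initiation factor eIF1, had 2.79 and 2.86 in sorted cells, against 2.49 and 2.18, and *NIP1*, nearest the median of the list, had 0.16 and −0.06, against 0.88 and 0.99. *SUI1* was not called.

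Further groups and single genes were chosen after their values were seen. RNA polymerase I, which transcribes ribosomal RNA, had 6 of 9 subunits lower, with a median of −1.28. Its second largest subunit, *RPA135*, had −2.54 and −2.11 in sorted cells, against 1.19 and 1.01. None of the 7 subunits particular to RNA polymerase II was called, beside 5.62% lower and 0.712% higher over all genes, with a median of 0.15. Of 7 chaperone genes at the ribosome 4 were lower. *SSB1* (YDL229W, chromosome IV, 44065 to 45906, plus strand), an Hsp70 that binds nascent chains, had −2.50 and −2.45 in sorted cells, against 1.90 and 1.81, with 40826 and 43060 ribodepleted reads, against 11528 and 6564. *SSB2* had −1.36 and −1.37, against 1.93 and 1.66, and its ribodepleted level differed by −0.01. Of 21 cytosolic aminoacyl-tRNA synthetases 8 were lower, with a median of −0.96. All 21 lay below 0, beside 2729 of 6602 over all genes. *DED81*, asparaginyl-tRNA synthetase, had −0.63 and −0.36 in sorted cells, against 1.76 and 1.31. Among single genes, *ASC1*, a protein of the small subunit's head, *GUA1*, a GMP synthase, *URA7*, a CTP synthase, and *PMA1*, the plasma membrane proton pump, differed by −3.65, −3.49, −4.14 and −2.95. *YBL039C-A* overlaps *URA7* and shares its reads.

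**Figure D4:**
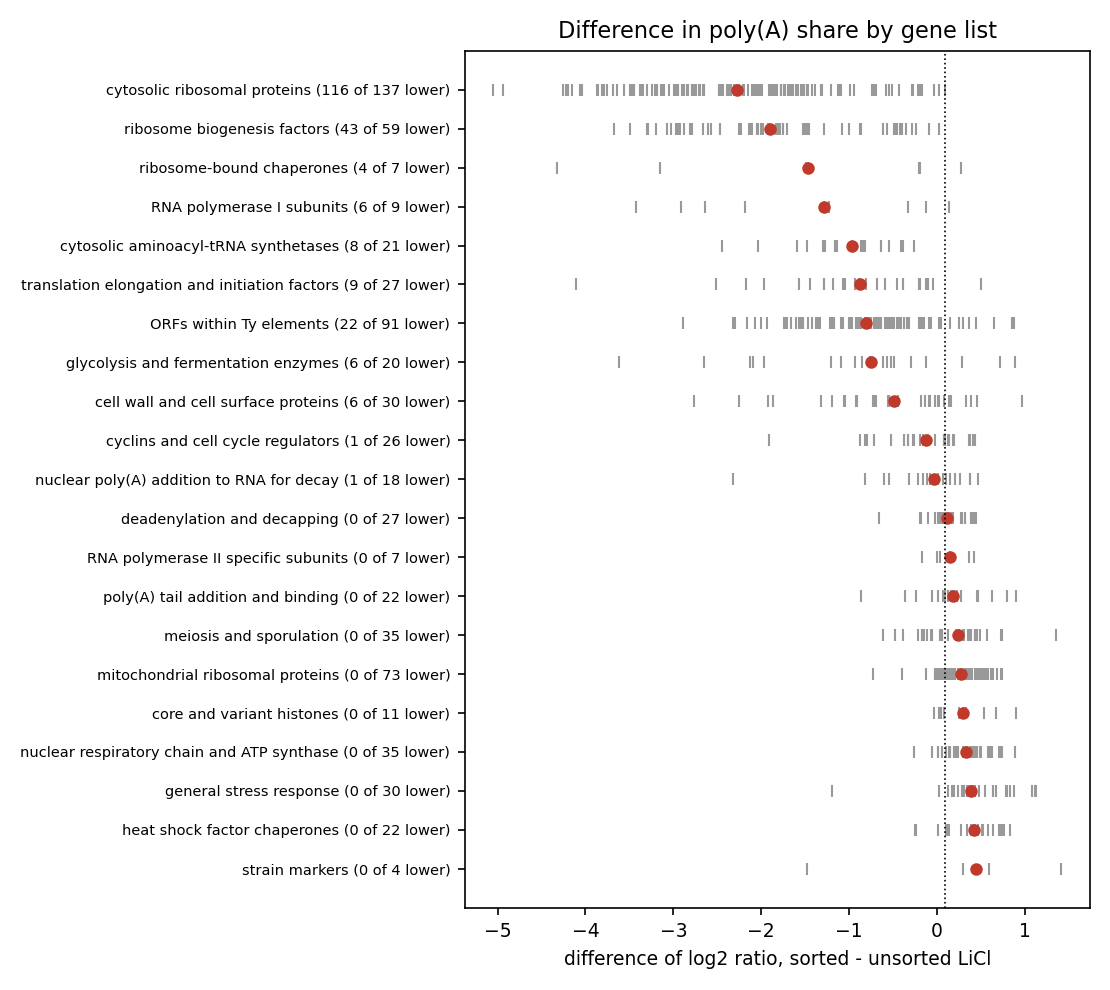
Sorted minus unsorted difference of the log2 ratio for the members of each gene list with at least 3 tested genes, with 1 grey mark for each gene and a red point at the median. The dotted line is the median over all tested genes, 0.09. Lists of the translation machinery lie to its left, led by ribosomal proteins with 116 of 137 lower and a median of −2.27, and the medians of heat shock factor chaperones, general stress genes and nuclear respiratory genes lie to its right with none lower.

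Enzymes of glycolysis and fermentation and genes of the cell wall were divided. Of 20 glycolytic and fermentation genes 6 were lower and none higher, beside 5.62% and 0.712% of all genes, with a median of −0.75. *CDC19* (YAL038W, chromosome I, 71786 to 73288, plus strand), the main pyruvate kinase, had −2.82 and −2.96 in sorted cells, against 0.76 and 0.69, and its ribodepleted reads were 73184 and 69482, against 60258 and 73299. *GPM1*, phosphoglycerate mutase, fell by 2.65, *PDC1* by 2.13 and *FBA1* by 2.09. *CDC19* overlaps *YAL037C-B* and *GPM1* overlaps *YKL153W*, with which they share reads. *HXK1*, a hexokinase, had 1.54 and 1.27 in sorted cells, against 0.40 and 0.98, and *PDC5* had 1.74 and 1.72, against 0.97 and 0.73. Neither was called. *PFK2*, nearest the median of the list, had a difference of −0.74 and was not called. Of 30 cell wall and cell surface genes 6 were lower and none higher, beside the same shares of all genes, with a median of −0.49. *CIS3*, a mannoprotein, had −2.15 and −1.68 in sorted cells, against 0.90 and 0.79, and *CWP2* had −1.32 and −1.03, against 1.15 and 1.01. *TIR1* had 0.87 and 0.77, against 0.02 and −0.33, and was not called.

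Stress genes were not called even where their levels differed widely. None of 22 heat shock factor chaperones was called, beside 5.62% lower and 0.712% higher over all genes, with a median of 0.42 and 20 of 22 above 0. *HSP42*, a small heat shock protein, had ratios of 0.75 and 0.62 in sorted cells, against −0.23 and 0.15, with a level difference of 2.70 in polyadenylated and 1.98 in ribodepleted libraries. *HSP26* had 1.76 and 1.79, against 1.39 and 1.33, with level differences of −1.96 and −2.37. None of 30 general stress genes was called either, with a median of 0.39, and nothing about these lists is read from the absence of calls. *ALD3*, an aldehyde dehydrogenase nearest the median of the list, had 1.68 and 1.54 in sorted cells, against 1.20 and 1.24, with a ribodepleted level difference of −3.02. *PGM2*, phosphoglucomutase, had 1.49 and 1.26 in sorted cells, against 0.22 and 0.38, and *YRO2*, which had a ribodepleted level difference of −4.46, had 0.14 and −0.05, against 1.04 and 1.45. Neither *PGM2* nor *YRO2* was called, because the gap between their groups was under 2-fold.

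The genes that make and shorten tails gave no calls. None of 22 genes of tail addition and binding and none of 27 of deadenylation and decapping was called, with medians of 0.18 and 0.11. Over all genes 5.62% were lower and 0.712% higher, and nothing about these lists is read from the absence of calls. *PAB1*, the poly(A)-binding protein, had 0.33 and 0.40 in sorted cells, against 1.27 and 1.18, a difference of −0.86 with a ribodepleted level difference of −0.51. *CDC39*, which encodes the scaffold Not1, had −0.68 and −0.83 in sorted cells, against −1.16 and −1.19. *PTI1*, a subunit of the cleavage and polyadenylation factor, had 1.07 and 1.20, against 0.34 and 0.13. *PUF2*, another Pumilio protein, had −1.06 and −1.52, against −0.73 and −0.53. Among 18 genes of the nuclear exosome and of the TRAMP complex, which adds short tails to RNA for decay, *MTR4* was the only one called, 1 of 18 beside 5.62% of all genes, with −0.98 and −0.81 in sorted cells, against 1.50 and 1.34. *MTR4* encodes a helicase that also takes part in ribosomal RNA processing. The zinc knuckle proteins of TRAMP, *AIR1* and *AIR2*, had differences of −0.82 and 0.37 and were not called.

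Histones, meiotic genes and cell cycle regulators gave 1 lower and 1 higher call, beside 5.62% lower and 0.712% higher over all genes, and nothing about the groups is read from these calls. No histone gene was called of 11, and *HTA1* had the largest difference, 0.90, with 4.29 and 4.99 in sorted cells, against 3.92 and 3.56. *HHT1* differed by 0.68 and *HHT2*, its near-identical copy, by −0.03, and the other 8 histone genes lay between 0.03 and 0.54. Of 35 meiotic genes only *HOP2* was called, with 3.45 and 3.43 in sorted cells, against 1.87 and 2.29, from 10 and 13 ribodepleted reads in sorted cells, against 47 and 41. Of 26 cyclin and cell cycle genes only *RNR1*, the large subunit of ribonucleotide reductase, was called, with −1.34 and −1.37 in sorted cells, against 0.63 and 0.49.

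Few genes gained in the polyadenylated fraction by the 2-fold rule, and many of these cannot be assigned to 1 transcript. Smaller positive differences were common: 3873 of 6602 genes lay above 0, a split that moves with the scaling. Of the 47 genes with a higher share, 18 overlap another open reading frame, 2 overlap an annotated noncoding RNA, 13 have no entry in the reference annotation and 7 are mitochondrial. Over the 6 unsorted cultures alone 40 of the 47 met the read minimum in both library types, while over the 2 sorted samples alone 370 of the 371 genes with a lower share did. The nuclear ones were short, with a median coding length of 360 bp. *YLR311C* had 1.42 and 2.77 in sorted cells, against −0.85 and −0.55, with 892 and 2138 polyadenylated reads, against 173 and 157. *SPG3*, a gene needed for survival in stationary phase, had 0.21 and 0.71, against −1.84 and −1.72, a difference of 2.24. *YAL016C-B*, *YCR018C-A* and *YPL119C-A* differed by 2.03, 2.48 and 2.04. *YDR271C* (1.45) overlaps *CCC2*, and *YLR154W-A* (2.19) overlaps the 25S ribosomal RNA gene *RDN25-1*. *HO* had 2.23 and 2.23 in sorted cells, against 0.69 and 0.94, at the locus named for the mCherry insertion.

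Mitochondrial transcripts were almost absent from the polyadenylated libraries of every sample. *COX1* (Q0045, mitochondrion, 13818 to 26701, plus strand), a core subunit of cytochrome c oxidase, had 46 and 281 polyadenylated reads in Rps22B-high and Rps22B-low, against 16 in WT and 8 in the culture labelled intron deleted, beside 27460 and 31169 ribodepleted reads, against 59464 and 50394. Its ratios were −8.74 and −6.68 in sorted cells, against −11.98 and −12.49. *COB*, which encodes cytochrome b, had 6 and 71 polyadenylated reads in sorted cells, against 2 and 4. The intron-encoded frames *AI1*, *AI2*, *AI3*, *AI4* and *AI5_ALPHA* lie within *COX1* and share its reads. Of the 7 mitochondrial frames, 5 (*COX1*, *COB*, *AI3*, *AI4* and *AI5_ALPHA*) met the read minimum only through the sorted libraries, where they are high, and not over the 6 unsorted cultures. Their values are therefore a description, and the read minimum favoured calls in this direction. Over the 2 unsorted LiCl cultures alone, *AI3* and *COB* missed the minimum, while *COX1*, *AI4* and *AI5_ALPHA* met it. The remaining 6 mitochondrial protein genes fell under the read minimum, with 0 to 26 polyadenylated reads in a sorted sample (*ATP6*, *ATP8*, *COX2*, *COX3*, *OLI1*, *VAR1*). Mitochondrial reads made up 0.00107% and 0.00517% of the polyadenylated reads in sorted samples, against 0.00028% and 0.000301%, and both *COX1* and *COB* had more of these reads in Rps22B-low than in Rps22B-high.

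Frames of Ty retrotransposons were grouped by annotation after values were seen. Of 91 tested frames within Ty elements 22 were lower and none higher, beside 5.62% and 0.712% of all genes, with a median of −0.81. Their median ratio was −4.17 and −3.79 in sorted cells, against −3.37 and −3.05, below the medians of the other nuclear lists in all 4 samples. Copies of Ty elements are near-identical, and reads cannot be assigned to 1 copy, so the 22 calls are not separate observations.

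Rps22B-high and Rps22B-low lay on the same side of the unsorted cultures. The ribosomal protein ratio was lower in Rps22B-high than in Rps22B-low for 117 of 137 genes, with a median difference of −0.25. The biogenesis ratio was lower for 47 of 59 genes, also with a median of −0.25. Against these medians, the difference between sorted and unsorted cells was −2.27 and −1.90. Over all genes, 3359 of 6602 were lower in Rps22B-high, with a median of −0.004, and each population is 1 RNA sample. Each of the 4 pairings of a sorted with an unsorted sample gave a median between −2.39 and −2.04 for ribosomal proteins and between −2.08 and −1.66 for biogenesis factors. The pairings with the culture labelled intron deleted gave −2.23 and −2.04 for ribosomal proteins. *RPS22B* itself had the higher ratio in Rps22B-high, by 0.84. Frames over the ribosomal RNA repeat parted the sorted populations: *TAR1* had 7.15 in Rps22B-high against 4.02 in Rps22B-low, with 1022 and 13991 ribodepleted reads, and *YLR154W-B* had 8.10 against 4.62. Both overlap *RDN25-1*, so that reads of ribosomal RNA cannot be told apart from theirs. By total counts, Rps22B-high was above Rps22B-low for 67 genes and below it for 64.

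The cultures with other stressors widened the range of unsorted ratios. When both sorted ratios had to lie at least 2-fold beyond those of all 6 unsorted cultures, 247 genes were lower (3.74%) and 9 higher (0.136%), all among the 371 and the 47. Of ribosomal protein genes 94 of 137 were lower by this rule, and of biogenesis factors 31 of 59. Translation factors and glycolytic genes kept 2 each, and cell wall genes 4. Of the 9 higher genes 5 are the mitochondrial frames that met the read minimum only through the sorted libraries, and *IRC13* (2.11) overlaps the U3 small nucleolar RNA gene *SNR17A*. Leaving out a sorted sample could only keep or raise the counts by this rule.

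**Figure D5:**
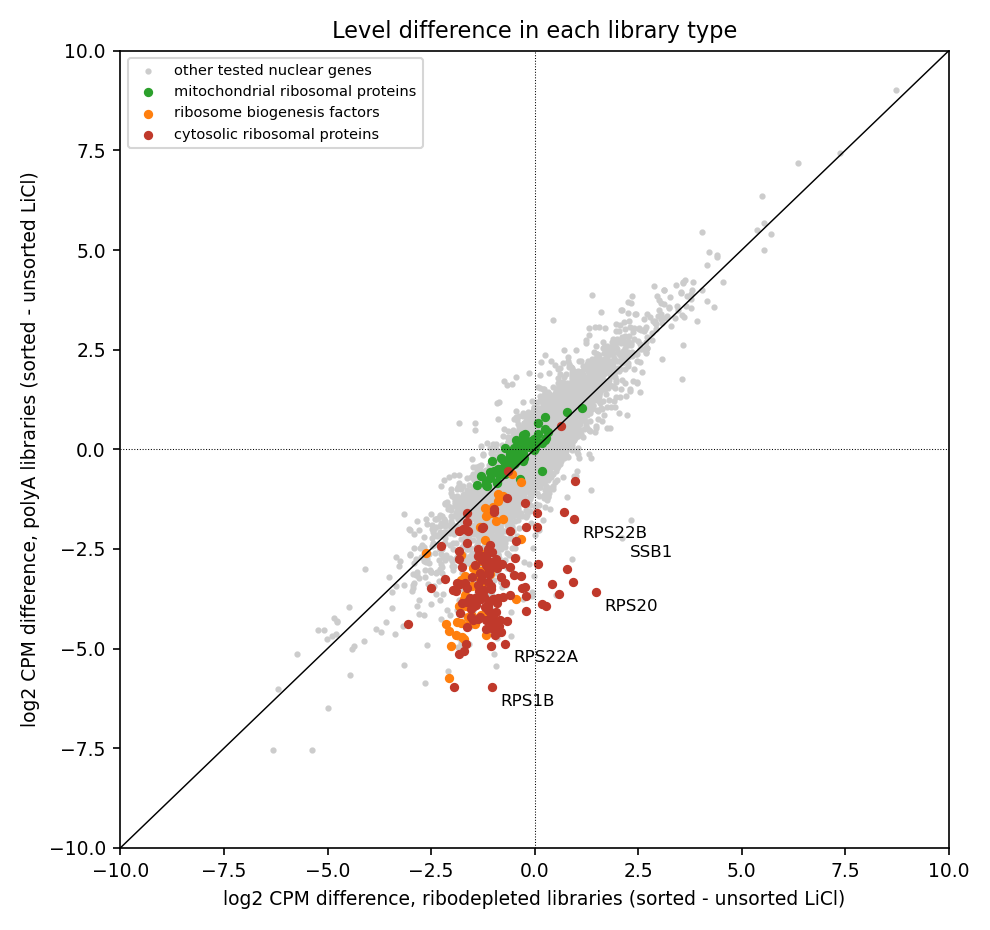
Sorted minus unsorted difference of log2 CPM in polyadenylated libraries (vertical axis) and ribodepleted libraries (horizontal axis), with 1 point for each tested nuclear gene and a line at equal differences. Of 137 cytosolic ribosomal protein genes (red) 135 lie below the line, with a median of −3.40 in polyadenylated and −1.11 in ribodepleted libraries. *RPS20* and *SSB1* lie at the lower right, with ribodepleted differences of 1.47 and 2.10.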

How the data were processed

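RNA from 8 yeast samples was sequenced as polyadenylated and as ribodepleted libraries with 100-base paired reads. RNA was purified with a RiboPure kit, ribosomal RNA was removed with QIAseq FastSelect, and both library types were made with a TruSeq Stranded mRNA kit. The authors aligned reads to genome R64 and counted them with featureCounts per coding sequence, per coding intron and per 5′ UTR intron. The submitters' processing notes name cutadapt, HISAT2 and featureCounts. The deposited values are raw counts of reads, beside a gene length in bases. Strand, mate and multimapping settings of the counting are not given in the sources used here, so reads of overlapping, antisense and near-identical genes cannot be told apart. Of 6697 gene IDs 6014 have an entry in the RefSeq R64 annotation.

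Counts were scaled by TMM (edgeR 4.0.16, R 4.3.3) within each library type over its 8 libraries. Log2 CPM used a pseudocount of 0.5 reads, and the ratio was polyadenylated minus ribodepleted log2 CPM. Genes with a mean of at least 10 reads over the 8 libraries of each type were tested. The 95% counting intervals assume Poisson reads and cover counting error only. DESeq2 1.42.0 size factors were an alternative, as was an edgeR quasi-likelihood fit with Benjamini-Hochberg adjustment that took the 2 RNA samples of a class as replicates. The scripts were tested on simulated data.

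Members and lists were chosen with earlier results of these data known. Named genes were the 12 with the largest gap in each direction among those with a mean of 50 reads in the LiCl libraries of each type, and from lists of up to 11 genes any member, otherwise the 2 with the largest gap each way and the one nearest the median, and the *RPS22* pair and strain markers. Other names were chosen after their values were seen. Of the 371 genes with a lower share, 182 are in one of the 18 lists. The cultures without LiCl enter the read minimum and the scaling, and otherwise only where named. A result on 1 item is not reported here.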

Additional observations from a re-analysis of the deposited data

How the results depend on the processing

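The median differences of ribosomal protein and biogenesis genes stayed negative under each alternative, and all 371 genes with a lower share remained called under each of 5 scalings. Other size factors put the median gene at −0.22 to 0.05, against 0.09, and centring on the median gene also lowered it. Such shifts favour lower calls, so their retention was not tested in the other direction. The counts of higher genes moved most. By CPM on total counts, which shifted the median gene to −0.22 from 0.09, 24 genes were higher, the ribosomal protein and biogenesis medians were −2.58 and −2.21, and the ribodepleted level was higher for 1042 genes and lower for 216. With a 4-fold gap, 6 genes, among them *COX1* and frames within it, were higher and 146 lower, with 68 ribosomal protein and 22 biogenesis genes lower. Beyond all 6 unsorted cultures that gap left 2 higher and 80 lower, between Rps22B-high and Rps22B-low 4 and 16, and between the culture labelled intron deleted and WT 5 and 2. Against all 6 unsorted cultures 9 genes were higher and 247 lower, with medians of −1.99 and −1.69. Among genes overlapping no other ORF or noncoding RNA, an alternative chosen after seeing the data, 27 were higher, 3 beyond all 6 cultures, and Rps22B-high was above Rps22B-low for 20 and below for 47. With no filter, 14 were higher beyond all 6 cultures, and the culture labelled intron deleted was above WT for 43 and below for 43. With a mean of at least 50 reads, these were 3, 12 and 5. The edgeR quasi-likelihood fit, which took different strains as replicates, passed 915 higher and 932 lower at an adjusted p of 0.05, and 99 and 478 with a fold of at least 2 as well.

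Leaving out 1 RNA sample in turn, higher genes numbered 56 to 194, those beyond all 6 cultures 12 to 63, and genes with a lower ribodepleted level 650 to 854, and the biogenesis median was −2.08 to −1.72. Each leaves a class with 1 sample. The 2 library types of an RNA sample were paired in every ratio. Sorted samples could not be paired with unsorted ones, because each labelled group holds 1 RNA sample. Genes with few polyadenylated reads, such as mitochondrial ones, have the widest counting intervals.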
